A study of Danio rerio with 2 samples.

Results

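RNA polymerase II (Pol II) peaks that were strong and sharp, and that lay among a few other peaks, were examined in 4 hpf zebrafish embryos. These peaks were chosen by their score, their width and the size of their cluster. All peaks of the list were first joined into clusters wherever the gap between neighbours was 10 kb or less. A peak was taken where it was under 2000 bp wide and its score reached the upper quartile of the whole list (the score threshold), in a cluster of 2 to 9 peaks whose widest peak was under 5000 bp, on an assembled chromosome other than chromosome 4. The rule found 762 strong sharp peaks among the 20243 peaks of the list (3.76%), in 628 clusters on 24 chromosomes. Their nearest comparison was the 1327 weaker peaks of the same clusters, which were also under 2000 bp wide but scored under the threshold.

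The embryos were of the wild-type Tübingen strain, received no treatment, and were collected in pools at 4 h post-fertilization (hpf). The study's methods name the Wik strain beside it as a source of wild-type fish. Chromatin was immunoprecipitated with antibody 8WG16 against Pol II, and an input sample made without antibody is not used here. The deposited list is 1 call on 2 pooled biological replicates. The differences below therefore could not be checked between replicates, and all cells of the embryo are averaged. Positions are in build GRCz10 (Zv10), and a gene annotation of that build was not used here, so regions carry no gene names.

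Pol II transcribes protein-coding genes. It gathers at promoters, where initiation complexes form and the enzyme often pauses just after the start site, and it is also found, at lower levels, along gene bodies and at enhancers. Early zebrafish embryos live on maternal transcripts, and Pol II is loaded widely on the genome when zygotic transcription begins. Narrow ChIP-seq peaks are typical of paused or initiating polymerase, and antibody 8WG16 prefers polymerase whose carboxy-terminal repeats carry little phosphate.

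The score of a peak was taken to be its highest −log10 q multiplied by 10, since the lowest score in the list was 20 and the stated cutoff was 2, although the list does not say so. It is a measure of significance, not of fold enrichment. The score threshold was reached by 25.3% of all peaks in the list and by 13.2% of the 5775 peaks under 2000 bp in the 1985 clusters searched. These shares follow from the rule, and nothing is read from them. The median over the whole list was 77 for the score and 850 bp for the width.

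Most strong sharp peaks lay well below the highest. Their score ranged from the threshold up to 13285, with a median of 295 (quartiles 216 and 482). Only 47 of the 762 (6.17%) reached 1000, and 5 reached 10000. The weaker peaks of the same clusters scored between 21 and 175, with a median of 54. Where a cluster held both kinds, its highest strong sharp peak scored a median of 4.71 times its highest weaker peak, with a range from 1.02 to 160. A strong sharp peak was the top peak of its cluster in 580 of the 628 clusters. By the rule, only a peak of 2000 bp or more could score higher than the members of its cluster. This count and the ratio are therefore descriptions.

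The strong sharp peaks were also wider than the weaker ones, with a median of 1190 bp (quartiles 900 and 1498 bp) against 570 bp (quartiles 400 and 900 bp). Score chose the members, and score and bounds come from the same call, so this difference is a description. It did not hold peak by peak. Of the 664 members that shared a cluster with a weaker peak, 173 were narrower than at least 1 of them. The narrowest member was 340 bp wide, and together the members covered 909 kb.

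**Figure D1:**
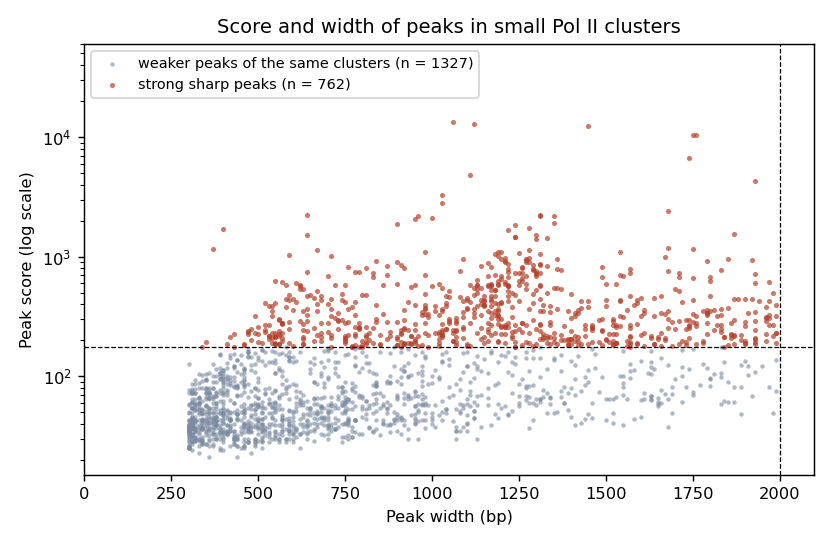
Score (log scale) against width in bp for the 762 strong sharp peaks (red) and the 1327 weaker peaks of their clusters (blue-grey); dashed lines mark the score threshold and the width of 2000 bp that the rule used. Red points crowd just above the score line, where 125 members scored under 200, and only 5 reach 10000.

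The thresholds cut through a continuous range. In the clusters searched, 51 narrow peaks lay up to 10 score units below the threshold and 62 members in the first 10 units from it. Of the 13 members exactly at the threshold, 3 were peaks on chromosome 10 (24481031 to 24482020, 990 bp), chromosome 11 (37772261 to 37773060, 800 bp) and chromosome 12 (13987051 to 13987820, 770 bp). Just outside it lay peaks on chromosome 1 (662491 to 663530) and chromosome 3 (17879951 to 17881250), both 1 score unit below it, and a peak on chromosome 13 (6127101 to 6128130) that scored 175, which is 2 units below.

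The width limit was no sharper. The 5 widest members fell 10 bp short of it, and those on chromosomes 17, 2 and 3 (24501101 to 24503090, 42425821 to 42427810 and 52861211 to 52863200) scored 320, 189 and 229. Peaks of 2000 bp on chromosomes 1, 11 and 12 (660121 to 662120, 13155531 to 13157530 and 15523581 to 15525580) were left out with scores of 360, 190 and 1271. In the clusters searched, 191 members were at most 500 bp narrower than the limit, and 172 peaks as strong were at the limit or less than 500 bp above it.

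Peaks that passed the same score and width limits also occurred outside small clusters. Among narrow peaks with no neighbour within 10 kb, 459 of 2534 reached the threshold (18.1%, exact 95% interval 16.6 to 19.7). The share was 13.2% (12.3 to 14.1) in the small clusters, 11.9% (10.7 to 13.1) in clusters of 10 or more peaks, and 10.3% (8.84 to 11.9) in clusters of 2 to 9 peaks with a peak of 5000 bp or more. The median score of the strong sharp peaks was 261 when alone, 295 in small clusters, 481.5 in clusters of 10 or more, and 284 beside a broad peak, and their median width was 830, 1190, 1370 and 1330 bp in the same order. These are descriptions, because score and width define the peaks counted.

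The 5 members above 10000 stood out from their clusters in different ways. On chromosome 13, the highest (18517891 to 18518950, 1060 bp) scored 13285, and the second highest (18523971 to 18525090, 1120 bp), in the same cluster, scored 12776. The only other peak of that cluster scored 83 (18514681 to 18515110). On chromosome 7, the next highest (7538501 to 7539950, 1450 bp) scored 12406 beside a 2360-bp peak of 10972 that was too wide to be a member (7544261 to 7546620), and a peak of 133 (7547331 to 7547840). These clusters thus held pairs of peaks of nearly equal score.

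The remaining 2 of the 5 had no neighbour of like score. On chromosome 1, a 1750-bp member (15765121 to 15766870) scored 10407, while the other 4 peaks of its cluster scored 169, 161, 124 and 45. On chromosome 20, a 1760-bp member (23333181 to 23334940) scored 10324, and its cluster held members of 682 and 450 and weaker peaks of 112, 42 and 34. All 4 clusters spanned between 9.34 and 20.51 kb.

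The next 5 by score fell from 6660 to 2800. They lay on chromosome 19 (16157121 to 16158860, 6660), chromosome 22 (34645271 to 34646380, 4859), chromosome 9 (1323031 to 1324960, 4319), chromosome 18 (37735811 to 37736840, 3262) and chromosome 10 (42902971 to 42904000, 2800). The member on chromosome 19 shared its cluster of 3 peaks with members of 211 and 323 and no weaker peak. The one on chromosome 22 had a second member of 802 and weaker peaks of 146 and 132. On chromosome 18, no other peak of the cluster of 5 passed 122. On chromosome 10, the cluster also held a member of 189 and a 3090-bp peak of 268. Ranked by score, the members therefore included both single high peaks and groups of them.

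A cluster usually held a single strong sharp peak. Of the 628 clusters, 520 held 1, 89 held 2, 16 held 3, and 1 each held 4, 5 and 7. Several were present in 108 clusters (17.2%, exact interval 14.3 to 20.4). Only 27 clusters consisted of strong sharp peaks alone, while 164 also held peaks of 2000 bp or more, of which 110 of 225 reached the threshold. In 446 clusters the member was the only peak of any width to do so.

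The median cluster spanned 8045 bp, with a range from 1250 to 49120 bp, and peaks covered a median of 47.7% of the span. A cluster of 2 whose member had the median score of its kind, 320, lay on chromosome 17 (24498891 to 24503090). Its other peak was 470 bp wide and scored 36, and its member was among the 5 widest. The share of clusters with a strong sharp peak was higher in clusters of 5 or more than in the smallest. It was 28.4% of 862 clusters of 2 peaks, 28.9% of 426 clusters of 3, 36.8% of 152 clusters of 5, 43.9% of 66 clusters of 7, 41.4% of 58 clusters of 8 and 40% of 40 clusters of 9. A larger cluster holds more peaks that can pass the threshold, and this order was not tested.

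Cluster maps showed how the strong peaks were arranged. On chromosome 5 (42763741 to 42795500), a cluster of 9 peaks over 31.76 kb held 5 members, which scored 228, 926, 2212, 226 and 1145 in the order of position. Its first peak scored 1824 but was 2080 bp wide, and the other 3 scored 94 to 98. On chromosome 9 (1313111 to 1337200), a cluster of 8 held members of 352, 351, 4319 and 740 together with wider peaks of 5336 and 5884. In both clusters high and low peaks were mixed along the cluster, and the summits of neighbouring members on chromosome 5 were between 1400 and 9920 bp apart.

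**Figure D2:**
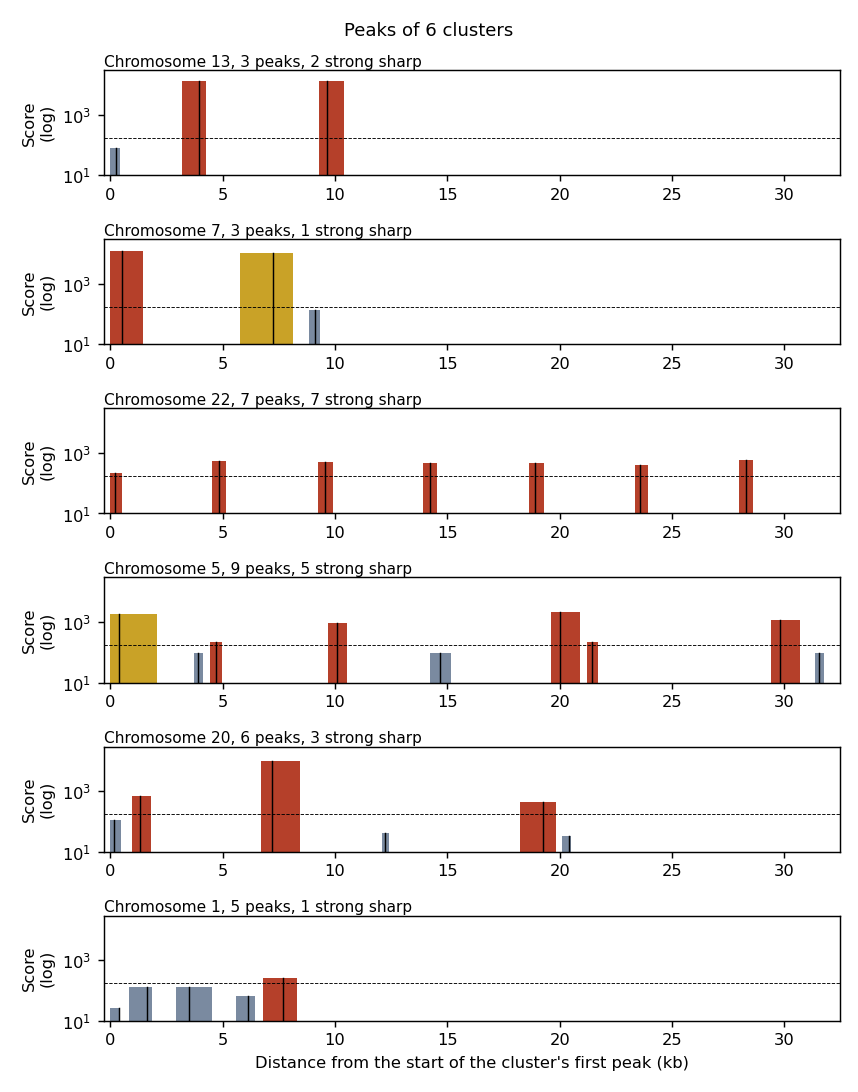
Peaks of 6 clusters drawn to scale from the start of each cluster's first peak (kb), with the score as height on a log axis starting at 10, strong sharp peaks in red, weaker peaks in blue-grey, peaks of 2000 bp or more in yellow, summits as black lines and the score threshold dashed. The chromosome 22 cluster holds 7 strong sharp peaks and no other peak, and the chromosome 1 cluster has its single member, scoring 269, at one end.

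The cluster with the most strong sharp peaks was evenly spaced. It lay on chromosome 22 (26336461 to 26365080, 28.62 kb), and all 7 of its peaks were members. They scored 215, 541, 515, 482, 482, 414 and 567 from first to last, so that the first was the lowest, and their widths lay between 530 and 670 bp. Successive summits were 4610, 4720, 4670, 4675, 4685 and 4700 bp apart. The coefficient of variation of these distances was 0.799%.

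No other cluster with several members was spaced so evenly. In the 19 clusters with 3 or more members, which held 64 members in all, the next lowest coefficient was 7.16%, for only 2 distances, on chromosome 9 (46775291 to 46786430). The highest was 129%. The regular array was noticed after its values were seen, summits are placed to within 10 bp, and no test was made. The sequence under its 7 peaks was not used here, and whether they are copies of one another was not tested. Near-identical repeats share reads in this alignment, so the 7 peaks may not be independent.

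In clusters of 3 or more peaks, strong sharp peaks lay at the ends more often than weaker peaks did. The order of peaks along a cluster was not part of the rule. In 372 clusters of 3 to 9 peaks that held both kinds, 307 of 469 members were the first or the last peak (65.5%, exact interval 61.0 to 69.8), against 374 of 1132 weaker peaks (33.0%, 30.3 to 35.9). If members had been placed at random among the members and weaker peaks of each cluster, 220.1 would have lain at an end. The odds ratio within clusters was 2.62 (two-sided exact test stratified by cluster, p = 7.89e-21, adjusted over 4 comparisons p = 3.16e-20).

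The excess at the ends was seen at every cluster size. Of members, 80.4% were at an end in clusters of 3, 67.3% in clusters of 4, 58.0% in clusters of 6 and 63.3% in clusters of 8, where the ends make up 66.7%, 50%, 33.3% and 25% of the places. The weaker peaks had 59.2%, 42.2%, 24.5% and 18.5%. The lowest share for members was 48.0% of 25 in clusters of 9, with an interval from 27.8 to 68.7, where the ends are 22.2% of the places.

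The highest peak was often at an end also where no peak was strong. There were 452 clusters of 3 to 9 peaks in which no peak of any width reached the threshold. Their highest peak, of any width under 5000 bp, was at an end in 333 (73.7%, 69.4 to 77.7). The strongest member, under 2000 bp wide and not always the highest peak of its cluster, was at an end in 279 of 383 clusters (72.8%, 68.1 to 77.2). The difference was −0.827 percentage points (95% interval −6.87 to 5.15), and the odds ratio was 0.959 (Fisher's exact test, two-sided p = 0.814, adjusted over 4 comparisons added after the data were seen p = 0.814).

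These pooled shares come from clusters of unlike size. Clusters of 3 peaks were 220 of the 452 but 123 of the 383, so that the ends made up 54.2% of the places on average in the first set and 47.5% in the second. Matched by cluster size, the direction turned and the odds ratio was 1.12 (two-sided exact test stratified by size, added after the data were seen, p = 0.515), with 279 strongest members at an end against 274.6 expected. Single sizes went both ways. Examples were 70.8% of 48 against 51.9% of 27 in clusters of 6, and 58.6% of 29 against 78.6% of 14 in clusters of 7. The widest gaps were in clusters of 8 (70.8% of 24 against 46.2% of 13) and of 9 (62.5% of 16 against 83.3% of 6). No difference was thus detectable in either form, and the part of the unlike width limits was not tested. After peaks within 500 bp of each other were merged, the odds ratio pooled over sizes was 0.550 (Fisher's exact test, p = 0.00335), and the cause was not tested.

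**Figure D3:**
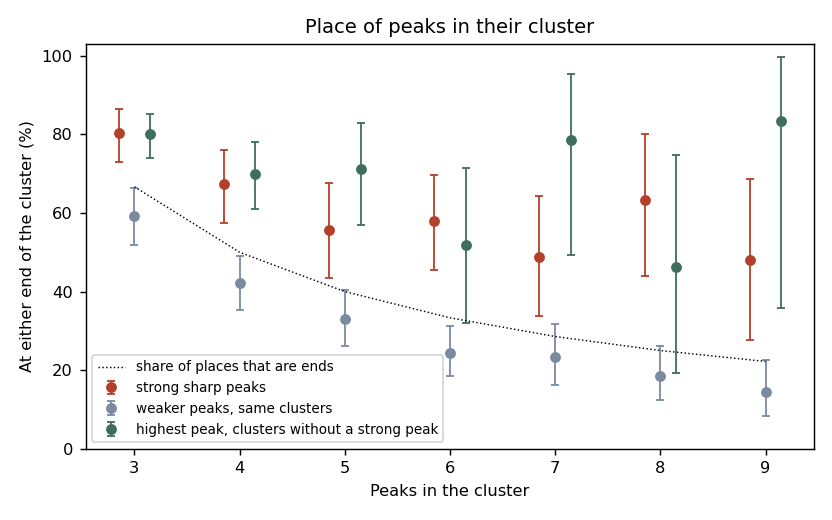
Share of peaks at either end of their cluster (%) by the number of peaks in the cluster, for strong sharp peaks (red), weaker peaks of the same clusters (blue-grey) and the highest peak of clusters without a strong peak (green), with exact 95% intervals; the dotted line is the share of places that are ends. Red points lie above the dotted line from 80.4% in clusters of 3 to 48.0% in clusters of 9, and blue-grey points lie below it.

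The summits of strong sharp peaks were somewhat farther from their nearest neighbour than those of weaker peaks, but not once place was matched. Over all members, the nearest summit was a median of 2288 bp away (625 to 11390 bp), against 1695 bp for the weaker peaks. In these 372 clusters, 46.3% of members and 36.7% of weaker peaks were above the median of their cluster (odds ratio 1.47, exact test stratified by cluster, p = 0.000269, adjusted p = 0.000538). An end peak has a neighbour on a single side, whereas an inner peak takes the nearer of its neighbours on both sides. Members were more often at an end, so this odds ratio does not separate strength from place. In 229 clusters with a member at one end and a weaker peak at the other, the member was farther from its neighbour in 111 and nearer in 118. That is 48.5% (41.8 to 55.1), with medians of 2330 and 2395 bp (two-sided exact binomial test, p = 0.692). This second comparison was added after the data were seen.

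A strong sharp peak at the end of a cluster had its summit toward the outside. There were 406 such members in clusters where no other peak reached the threshold. From the summit to the outer edge of the peak, the median was 335 bp (quartiles 276 and 485), and to the edge that faced the cluster it was 785 bp (481 and 1035). The summit was nearer the outer edge in 314 of 402 peaks (78.1%, exact interval 73.7 to 82.1; 4 summits were at the middle). An even split was departed from by a two-sided exact binomial test with p = 7.22e-31 (adjusted over 4 added comparisons p = 2.89e-30). Ends are chosen by having called peaks on the inner side only, so an even split need not hold for end peaks of any strength. The test therefore does not set strong peaks apart. The other peaks of the cluster lay on the side of higher coordinates in 200 of the 406 clusters (49.3%), so both directions along the chromosome were about equally common.

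Most of the added width of wider end peaks lay on the inner side of the summit. In end members under 1000 bp wide, the medians were 292.5 bp outward and 417.5 bp inward. In those of 1000 bp to under 1500 bp they were 365 and 825 bp, and in those of 1500 bp or more 355 and 1265 bp. The outer side lengthened in part of the peaks, with an upper quartile of 365, 490 and 682.5 bp in the same order, against 535, 935 and 1425 bp on the inner side. The summit was nearer the outer edge in 69.1% of 110 peaks in the narrowest class, 82.1% of 190 in the middle class and 80.4% of 102 in the widest. By cluster size, the share was 73.8% of 206 peaks in clusters of 2, 80.3% of 71 in clusters of 3, 78.8% of 52 in clusters of 4 and 92.6% of 27 in clusters of 5. Classes of larger clusters held 23 peaks or fewer.

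The same lean was weaker where no peak was strong. Among clusters in which no peak reached the threshold, the highest peak, of any width under 5000 bp, had its summit nearer the outer edge in 563 of 847 cases where it was at an end (66.5%, 63.2 to 69.6). The share in strong sharp end peaks was 11.6 percentage points higher (95% interval 6.34 to 16.6; odds ratio 1.80, two-sided Fisher's exact test, p = 2.20e-05, adjusted p = 2.93e-05). The outer summit therefore occurred in both, and more often in the strong peaks, without matching for width. In the group without a strong peak, the medians from the summit were 290 bp outward and 505 bp inward, against 335 and 785 bp in strong end peaks. The outer share in strong end peaks was 69.1% (59.6 to 77.6) under 1000 bp, and 82.1% and 80.4% in the wider classes. These groups differ in score by their definition, in their width limit and in these distances. The part of each in the difference was not tested.

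**Figure D4:**
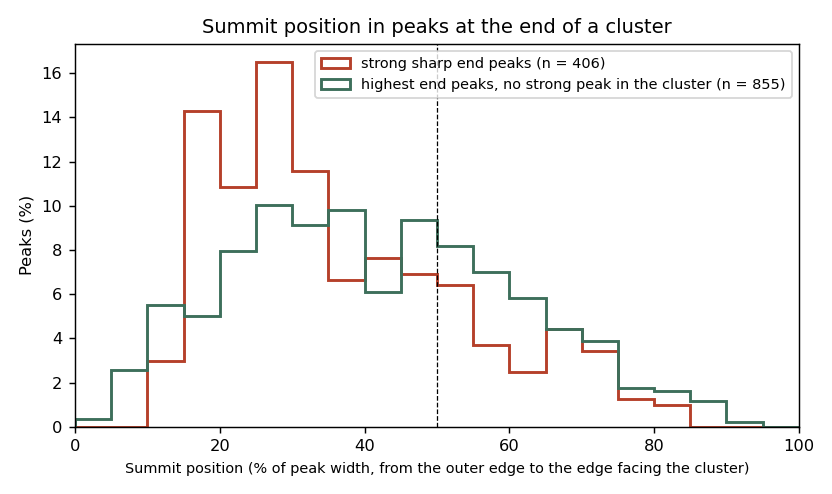
Position of the summit in peaks at the end of a cluster, as % of peak width from the outer edge (0) to the edge facing the cluster (100), for 406 strong sharp peaks without another strong peak in the cluster (red) and the 855 highest end peaks of clusters without a strong peak (green), each in % of its peaks. Both distributions lean to the left of the dashed middle line, with 78.1% of red and 66.5% of green summits on the outer side.

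Strong sharp peaks in clusters were also more often off-centre than lone ones, by a measure relative to peak width. Off-centre position was measured as the distance of the summit from the middle of the peak, in percent of the distance from middle to edge. It was over 50% for 170 of 628 strongest members (27.1%, 23.6 to 30.7) and for 63 of 459 lone strong sharp peaks (13.7%, 10.7 to 17.2). The difference was 13.3 percentage points (95% interval 8.55 to 17.9; odds ratio 2.33, two-sided Fisher's exact test, p = 9.06e-08, adjusted p = 1.81e-07). Lone peaks were narrower, with a median of 830 bp against 1190 bp. Few member summits lay close to an edge, with a 5th percentile of 215 bp from the nearer edge. At such distances a narrow peak passes 50% less easily than a wide one. This comparison therefore does not separate clustering from width, and the part of width was not tested. The median off-centre position was 35.6% for all 762 members, 19.7% for lone peaks and 36.7% for strong sharp peaks in clusters of 10 or more.

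Against the weaker peaks of their own clusters, the members were only slightly more off-centre, and the call depended on the settings. In 567 clusters, 51.4% of members and 42.2% of weaker peaks were above the median of their cluster (odds ratio 1.31, exact test stratified by cluster, p = 0.00122, adjusted p = 0.00163), with medians over peaks of 36.1% and 32.4%. By the same exact test, the odds ratio with a width limit of 1500 bp was 1.08 (p = 0.437), with a score of 100 it was 1.03 (p = 0.633), and with peaks within 500 bp merged it was 0.954 (p = 0.667). In absolute terms, the summit of a member was a median of 325 bp from its nearer edge (85 to 965), against 185 bp (5 to 915) for a weaker peak. Members were also wider, with a median of 1190 bp against 570 bp, so these distances are a description.

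Behind a strong sharp end peak, the other peaks of the cluster, here of any width under 5000 bp, had similar median scores from place to place. In 198 clusters of 3 or more peaks with a single strong peak at an end, the median of that member was 266.5 for the score and 1315 bp for the width. The first peak behind it had a median score of 55 and lay a median of 2318 bp away, and the next had 49 at 5210 bp. At the third place the median was 50.5 (n = 126, 7883 bp), at the fourth 48 (n = 74) and at the fifth 43.5 (n = 46). Median widths at these first 3 places were 690, 655 and 675 bp. All of them score under the threshold by the choice of these clusters, so the medians are a description and no decline was tested.

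An example of such a cluster lay on chromosome 1 (39413001 to 39421320), a cluster of 5 chosen after its values were seen because its member scored near the median of its kind. From the far end, its weaker peaks scored 26, 134, 131 and 64, and the member (39419801 to 39421320, 1520 bp) scored 269. Over all 406 end members, the gap to the next peak of the cluster, whatever its width, was a median of 720 bp. It ranged from 210 bp, the smallest gap in the list, to 9680 bp.

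When a cluster held a pair of strong sharp peaks, their summits usually lay some kilobases apart. In the 89 clusters with 2 members, the higher score was a median of 1.42 times the lower and at most 14.8 times, a description, since both had to pass the same threshold. The summits were a median of 6030 bp apart, from 900 to 30200 bp. The members were neighbours in 52 clusters, with a median distance of 4768 bp, and had other peaks between them in 37. In the 66 pairs that lay in clusters larger than 2, both ends were taken by members in 15.

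Neighbouring pairs showed no lean of their summits away from each other. Of the 52, both summits were on the side away from the partner in 9, both on the side facing it in 16, and the remaining 27 pairs had both summits on the same side along the chromosome. These small counts were not tested. They are measured otherwise than the 78.1% of outer summits in end members without a strong partner, whose outer side faced no peak of the cluster. A member of a pair could have weaker peaks on the side away from its partner, so the shares are not directly comparable.

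Strong sharp clusters were found on all 24 chromosomes searched. A member was present in 628 of 1985 clusters, or 31.6% (29.6 to 33.7). The share was highest on chromosome 5, with 43.1% of 116 clusters (33.9 to 52.6) and 66 members, and on chromosome 20, with 42.0% of 100 (32.2 to 52.3) and 50 members. It was lowest on chromosome 25, with 22.1% of 68 (12.9 to 33.8). Only the intervals of chromosomes 5 and 20 left out the overall share. With 24 intervals at 95%, some are missed by chance, and no test of the chromosomes was made. Median member scores lay between 231 on chromosome 8 and 391 on chromosome 18.

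**Figure D5:**
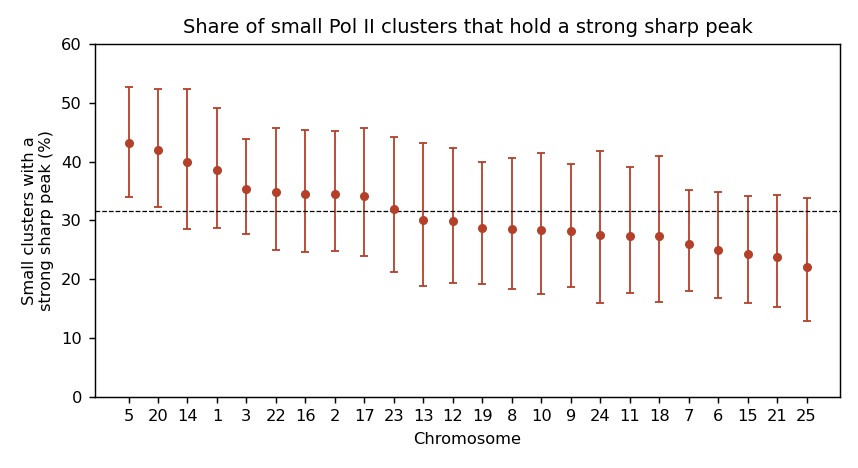
Share of small clusters that hold a strong sharp peak (%) by chromosome, ordered by the share, with exact 95% intervals and the share over all chromosomes (31.6%) as a dashed line. The intervals of chromosomes 5 and 20 lie above the line, and the other 22 cross it.

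Clusters with a strong sharp peak were not detectably nearer to broad Pol II domains, peaks of 5000 bp or more, than clusters without one. Clusters without a member could still hold a peak of 2000 bp or more that reached the score threshold. Of the 862 clusters of 2 peaks, for example, 245 held a member and 522 held no peak at the threshold. The comparison is therefore not one of clusters with and without strong Pol II peaks. A broad peak lay within 100 kb of 137 of 628 clusters with a member (21.8%, 18.6 to 25.3) and of 274 of 1357 without (20.2%, 18.1 to 22.4). The difference was 1.62 percentage points (95% interval −2.15 to 5.59; odds ratio 1.10, two-sided Fisher's exact test, p = 0.405, adjusted p = 0.405). The median distance to the nearest broad peak was 336 and 344 kb. An excess of more than 5.59 points lay outside the interval.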

How the data were processed

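Pol II ChIP-seq was analysed from 1 list of peaks. According to the study's methods, Novoalign 2.8 aligned the reads to GRCz10 (Zv10) and gave a read with several best matches a random one of them, so near-identical repeats share reads. SAMtools merged technical replicates, and a MACS2 wrapper called 2 biological replicates together against input with a cutoff of 2. The authors deposited 1 whole-number score per peak. The rule of selection set the score at 177 or more, which is the upper quartile of the list. The list holds 0 in its enrichment, p and q fields for every peak. Depth is unknown.

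Peaks were stitched, selected and compared with Python 3.11.15, numpy 2.4.6, pandas 2.3.3 and SciPy 1.17.1, and plotted with matplotlib 3.10.9. Positions are counted from 1. The members, lists and tests were chosen with earlier results of these data known. Members and weaker peaks were compared within clusters by an exact test, stratified by cluster, of the number of members at an end or above the cluster's median. It replaced planned sign tests over clusters, whose signs were found on simulated clusters not to be equally likely without a preference. Clusters were compared by Fisher's exact test. P-values were adjusted by Benjamini-Hochberg over the 4 planned comparisons and over 4 of the added ones separately, with a threshold of 0.05. The test matched by cluster size and the test of end peaks only were also added, and their p-values were not adjusted. Those of the alternatives were not adjusted either. Shares carry exact binomial (Clopper-Pearson) 95% intervals and differences Newcombe intervals. These cover counting error only, and peaks of 1 cluster are not independent. Regions were named by rule: the 10 highest scores, the 5 clusters with the most members, the peaks beside each threshold and a cluster of 2 whose member has the median score. Alternatives changed the gap, score, width, merging and, for some comparisons, the clusters or weaker peaks used.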

Additional observations from a re-analysis of the deposited data

How the results depend on the processing

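The excess of strong sharp peaks at cluster ends held under all 9 alternatives (odds ratio 2.02 to 4.52), as did the outer summits under 7 (74.2% to 80.8%), their excess over clusters without a strong peak under 8 (odds ratio 1.44 to 2.22, and 1.69 matched by cluster size) and, under 7, the off-centre excess over lone peaks (1.74 to 2.78). The test of outer summits against an even split does not set strong peaks apart under any setting. The excess over clusters without a strong peak and that over lone peaks were not matched for width. Members numbered 375 at a score of 300 and 1610 at 100, and clusters with several made up 13.1% and 30.7% there, and 14.1% with a 5 kb gap. The nearest-summit odds ratio, which does not separate strength from place in the cluster, held under 9 alternatives and turned to 0.941 with end peaks only. The off-centre odds ratio against weaker peaks fell to 1.03 at a score of 100, 1.08 under 1500 bp and 0.954 after merging. The odds ratio for a broad domain within 100 kb was 0.876 with a 5 kb gap, 0.928 at a score of 300, 0.906 under 1500 bp, 0.947 under 3000 bp, 0.979 in clusters of 2 and 0.838 for peaks of 10 kb or more, with p from 0.247 to 1 over its 12 alternatives. The odds ratio for the strongest peak at an end was 1.34 with a 5 kb gap, 1.30 at a score of 100, 1.13 under 3000 bp, 1.12 matched by cluster size and 0.550 after merging. The cause was not tested. No paired analysis was possible because the list pools both replicates, and leaving out a replicate was not possible either. Sequence and annotation were planned and not run, since a genome of this build was not used here. Depth is unknown.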
